A study of Homo sapiens with 17 samples.

Results

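Matrix metalloproteinases (MMPs) are zinc-dependent endopeptidases that are made as inactive precursors and cut collagens, other matrix proteins and many cell-surface and secreted factors. Tissue inhibitors of metalloproteinases (TIMPs) bind their active sites, and at the cell surface MMP14 and TIMP2 together form the docking site on which the MMP2 precursor is cut to its active form. Several of these genes belong to the senescence-associated secretory phenotype (SASP), the set of factors that senescent fibroblasts release. The 8 genes described here are MMP2, MMP9, MMP14, MMP19, TIMP1, TIMP2, TIMP3 and TIMP4, chosen by name as family members that lie outside the 11q22 MMP cluster, out of 62754 genes in each count table. All 8 passed the filter on low counts and were among the 19473 genes tested.

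The genes were followed in 17 RNA-seq libraries of IMR90 ER:RAS cells, a human lung fibroblast line infected with a retrovirus (pLNC ER:RAS-neo) that encodes RASG12V fused to an oestrogen receptor domain. 4-hydroxytamoxifen (4OHT) switches the fusion on and drives the cells into oncogene-induced senescence, whereas cells given DMSO keep growing. All groups carried the construct and all were reverse transfected with an siRNA, either non-targeting (siNT) or against SMARCA4 (siSMARCA4), the gene for a catalytic subunit of SWI/SNF chromatin remodellers. There were 5 DMSO siNT, 6 4OHT siNT and 6 4OHT siSMARCA4 libraries, with RNA taken at day 7 of 4OHT or DMSO. No DMSO library received siSMARCA4, so the knockdown was measured in senescent cells alone. A single line was used and the labels do not say whether replicates were separate cultures, so the p-values measure the spread between these libraries, which may be technical. The labels further hold a number, 2 or 4, after the siRNA name and a replicate code ending in V or VM, and explain neither. The number is called the siRNA number here. The labels do not say that 2 and 4 after siNT name siRNAs, or that they match the numbers after siSMARCA4. All 6 4OHT siNT libraries were VM, against 3 of 6 siSMARCA4 and 3 of 5 DMSO libraries, and because 4 of the 8 genes lay apart by this tag within siSMARCA4, knockdown effects on these genes, and the counts of the gene lists, are also given over VM libraries alone.

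Total counts ran from 39109479 to 68978119 per library, and mitochondrial genes took 2.87% to 3.46% of the counts in DMSO siNT, 4.53% to 5.50% in 4OHT siNT and 4.54% to 7.81% in 4OHT siSMARCA4. SMARCA4 fell from 268 ± 13.2 CPM (counts scaled to library size with TMM factors; SD, n = 6) in 4OHT siNT to 88.0 ± 22.8 CPM (n = 6) in 4OHT siSMARCA4, which in edgeR's fit was -1.61 on the log2 scale (SE 0.13, adjusted p 5.14e-07) with no overlap of libraries. Within siSMARCA4 it was 82.6 to 126 CPM in the 3 V libraries and 68.4 to 78.2 CPM in the 3 VM libraries, a log2 difference of 0.54 (SE 0.12, edgeR adjusted p 0.0201). The 10 fibroblast markers were all detected, with summed levels of 23055 to 27759 CPM in DMSO siNT, 13574 to 17695 CPM in 4OHT siNT and 7651 to 11012 CPM in 4OHT siSMARCA4. The 4 epithelial, 6 leukocyte and 4 natural killer cell markers summed to at most 1.29, 0.272 and 0.119 CPM in any library, and the 4 endothelial markers to at most 5.94 CPM. Of 5 senescence and arrest markers, CDKN1A, CDKN2A and CDKN2B were higher in 4OHT siNT than in DMSO siNT, and MKI67, a gene of cycling cells, and LMNB1 were lower. At an edgeR adjusted p under 0.05, 27.0% of all genes were higher and 27.4% lower there. The knockdown lowered the first 3 of these 5 and raised none, beside 13.8% and 10.4% of all genes. Over VM libraries alone 3 of the 5 were lower and 2 higher, beside 15.3% and 11.6%. Against all 4OHT siNT libraries, siSMARCA4 number 2 gave 2 lower, beside 13.5%, and number 4 gave 3, beside 6.06%. In bulk RNA a smaller number of cells of a type and less RNA per cell cannot be told apart.

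Promoter sequence was at hand for 4 of the 8 genes, and these 4 are shown because they cover both directions of change described next: MMP14 and TIMP1 rose with senescence, and TIMP3 and TIMP4 fell. Each line gives the 250 bases before the RefSeq start of the gene (GRCh38.p14), 5′ to 3′ on the gene's strand, with capitals marking the GC box GGGCGG on either strand. The windows are chr14:22836335-22836584 (plus) for MMP14, chrX:47582186-47582435 (plus) for TIMP1, chr22:32801455-32801704 (plus) for TIMP3 and chr3:12158913-12159162 (minus) for TIMP4.
MMP14: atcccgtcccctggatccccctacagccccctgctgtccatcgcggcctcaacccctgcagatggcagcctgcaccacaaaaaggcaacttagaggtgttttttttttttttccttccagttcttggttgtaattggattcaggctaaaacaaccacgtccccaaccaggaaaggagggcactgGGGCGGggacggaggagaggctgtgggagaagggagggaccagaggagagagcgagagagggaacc
TIMP1: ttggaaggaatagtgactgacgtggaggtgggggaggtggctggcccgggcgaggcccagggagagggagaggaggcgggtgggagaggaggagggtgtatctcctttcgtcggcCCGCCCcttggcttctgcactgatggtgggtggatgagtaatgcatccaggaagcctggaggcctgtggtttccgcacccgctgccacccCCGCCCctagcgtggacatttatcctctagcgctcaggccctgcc
TIMP3: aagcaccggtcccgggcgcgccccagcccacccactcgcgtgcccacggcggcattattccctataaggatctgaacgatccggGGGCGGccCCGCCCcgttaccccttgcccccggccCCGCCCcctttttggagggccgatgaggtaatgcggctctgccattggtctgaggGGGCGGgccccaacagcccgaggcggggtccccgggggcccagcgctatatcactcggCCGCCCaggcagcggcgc
TIMP4: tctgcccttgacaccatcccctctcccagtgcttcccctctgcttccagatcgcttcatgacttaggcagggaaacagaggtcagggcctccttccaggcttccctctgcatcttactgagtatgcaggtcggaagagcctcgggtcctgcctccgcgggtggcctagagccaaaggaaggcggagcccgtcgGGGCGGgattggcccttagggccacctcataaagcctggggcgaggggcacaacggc

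The GC box, a site recognised by Sp-family factors, occurred 5 times before TIMP3, 2 times before TIMP1 and once each before MMP14 and TIMP4, and 42.6% of all 35116 promoters of the same length held it. GC content was 72.4% for TIMP3, 64.8% for TIMP1, 62.8% for TIMP4 and 56.8% for MMP14, beside a median of 58.0% over all promoters. The CCAAT box was present once before MMP14, TIMP3 and TIMP4 and in 32.0% of all promoters. Neither the AP-1 letters TGANTCA (6.57% of all promoters) nor the TATA box letters TATAAA (10.7%) were found in these 4 windows. Only exact letters were searched, so a close variant such as tgagtaa in the TIMP1 window is not a match. A window without the letters may still hold a site. All 4 motifs were searched on both strands, and matches of the GC box did not overlap those of the CCAAT box. The GC box was thus present before genes that rose and genes that fell. The GENCODE starts of MMP14 and TIMP1 lie inside these windows, before the RefSeq starts, so the last bases of both windows are transcribed in the GENCODE models. MMP2, MMP9, MMP19 and TIMP2 have no sequence here.

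The design puts 3 questions to these genes, namely what changed with senescence (4OHT against DMSO in siNT), what SMARCA4 knockdown changed in senescent cells (siSMARCA4 against siNT in 4OHT), and where the knockdown cells then stood against growing cells (4OHT siSMARCA4 against DMSO siNT). A gene was called when its edgeR adjusted p was under 0.05 over all 19473 genes. With senescence 3 of the 8 genes rose (MMP9, MMP14 and TIMP1) and 4 fell (MMP19, TIMP2, TIMP3 and TIMP4), where 27.0% of all genes were called higher and 27.4% lower. MMP9 passed the filter on low counts through 4OHT libraries alone, so any call of it against DMSO could only be higher. With SMARCA4 knockdown none of the 8 rose and 3 fell (TIMP2, TIMP3 and TIMP4), where 10.4% of all genes were called higher and 13.8% lower. Against growing cells the knockdown cells had 4 of the 8 higher (MMP2, MMP9, MMP14 and TIMP1) and 4 lower, beside 26.5% and 28.6% of all genes. The median log2 fold change of the 8 genes was -0.18, -0.24 and -0.31 in these comparisons, and that of all genes was 0.004, -0.02 and -0.01. The comparisons share libraries, so their values are set side by side and are not independent. Scaling by library totals alone moved the median of all genes to -0.11 in 4OHT against DMSO and the calls from 5256 higher and 5345 lower to 4222 and 6465, while the 8 genes kept 3 higher and 4 lower.

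**Figure D1:**
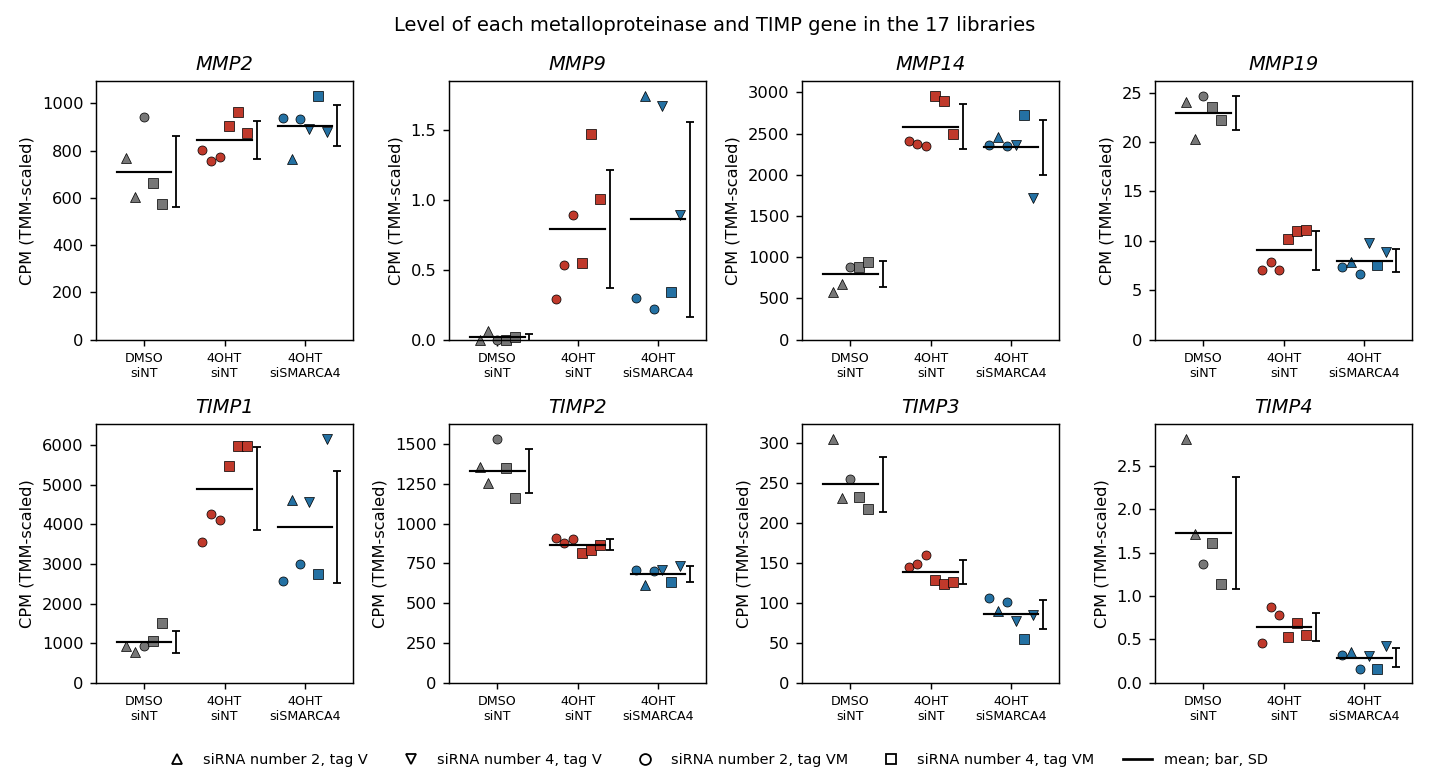
CPM (TMM-scaled, linear axes from 0) of each of the 8 genes in the 17 libraries, 1 point per library, with triangles for V and circles or squares for VM libraries, a line at the group mean and a bar of 1 SD beside it. MMP9, MMP14 and TIMP1 sit higher in both 4OHT groups than in every DMSO library, MMP19 and TIMP2 to TIMP4 sit lower, and TIMP2, TIMP3 and TIMP4 step down again in 4OHT siSMARCA4.

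MMP2, also called gelatinase A, degrades type IV collagen and denatured collagen (ENSG00000087245; GRCh38 chr16:55389700-55506691, plus strand). Its level was 573, 604, 663, 767 and 944 CPM in the DMSO siNT libraries. It ran from 755 to 964 CPM with a median of 838 in 4OHT siNT, and from 765 to 1032 CPM with a median of 911 in 4OHT siSMARCA4. The 3 groups overlapped, and 1 DMSO library, 2-2VM, lay above 5 of the 6 4OHT siNT libraries. The rise with senescence was 0.25 on the log2 scale (SE 0.12) and did not pass the test (edgeR adjusted p 0.0745), but without that DMSO library it was 0.35 and passed (adjusted p 0.00665). It was -0.02 with number 2 libraries alone (adjusted p 0.905) and 0.52 with number 4 libraries alone (adjusted p 0.0132). The knockdown effect was 0.10 (95% interval -0.13 to 0.33, edgeR adjusted p 0.555), and 0.21 over VM libraries alone (adjusted p 0.233). Knockdown cells stood 0.35 above growing cells (SE 0.12, edgeR adjusted p 0.0149), a call that was lost with siRNA number 2 libraries alone (0.20, adjusted p 0.266) and with library totals as the only scaling (0.28, adjusted p 0.0529). An exon stretch of 174 bases is shared on the same strand with ENSG00000279030, which had 1757 to 3844 counts per library beside at least 29517 for MMP2.

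MMP9, or gelatinase B, cleaves the same substrates and is typical of neutrophils and macrophages (ENSG00000100985; chr20:46008908-46016561, plus strand). It was close to absent in growing cells, with 4 counts over the 5 DMSO libraries, of which 3 came from library 2-2V and 1 from 4-3VM. In 4OHT siNT every library had counts, between 15 and 81, and levels ran from 0.288 to 1.47 CPM with a median of 0.719. In 4OHT siSMARCA4 they ran from 0.215 to 1.74 CPM with a median of 0.615. Both 4OHT groups lay wholly above DMSO, yet per kilobase the gene remained among the 2 rarest of the 8 in senescent cells. The pooled CPM was 54.8 times those of DMSO in 4OHT siNT (exact interval 21.1 to 203, counting error only) and 63.0 times in 4OHT siSMARCA4 (24.3 to 233). The fitted log2 fold change with senescence was 5.55 (SE 0.87, edgeR adjusted p 2.6e-05), and without library 2-2V it was 6.85. With so few DMSO counts MMP9 passed the filter on low counts through the 4OHT libraries alone. Any call of MMP9 against DMSO could therefore only be higher, and the test adds little to the counts. The pooled knockdown effect was 0.13 (95% interval -0.93 to 1.19, edgeR adjusted p 0.886), but it did not hold within the VM libraries, as described with the tags. The leukocyte markers summed to 0.153 to 0.272 CPM in 4OHT siNT and 0.0805 to 0.177 CPM in 4OHT siSMARCA4, and all 6 had group means under 1 CPM. Exons of SLC12A5-AS1, which had at most 4 counts, overlap MMP9 over 430 bases on the opposite strand.

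MMP14, the membrane-anchored MT1-MMP, cleaves fibrillar collagen at the cell surface and activates MMP2 (ENSG00000157227; chr14:22836560-22849041, plus strand). It was at 574, 673, 876, 886 and 944 CPM in DMSO siNT. It ran from 2345 to 2960 CPM with a median of 2453 in 4OHT siNT and from 1724 to 2730 CPM with a median of 2366 in 4OHT siSMARCA4. Every 4OHT library thus lay above every DMSO library, while the 2 4OHT groups overlapped. Senescence raised MMP14 3.26-fold (log2 1.71, SE 0.13, edgeR adjusted p 4.06e-09), and the knockdown left it 2.95-fold above growing cells (log2 1.56, SE 0.13, adjusted p 1.08e-08). The knockdown effect was -0.15 (95% interval -0.40 to 0.11, edgeR adjusted p 0.427), and -0.04 (SE 0.09, adjusted p 0.790) over VM libraries alone. In DMSO the 2 V libraries were the lowest for MMP14, and over VM libraries alone the senescence effect was 1.49 (SE 0.10, adjusted p 3.86e-08).

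MMP19 is a secreted proteinase with basement membrane substrates (ENSG00000123342; chr12:55835433-55842966, minus strand), and alone among the 4 MMPs it fell. Its DMSO siNT levels were 20.3, 22.3, 23.5, 24.0 and 24.7 CPM. It ran from 7.01 to 11.1 CPM with a median of 9.0 in 4OHT siNT and from 6.67 to 9.76 CPM with a median of 7.65 in 4OHT siSMARCA4. All 12 4OHT libraries lay below all 5 DMSO libraries. The log2 fold change with senescence was -1.35 (SE 0.13, edgeR adjusted p 7.73e-08), which is 2.54-fold lower, and that of the knockdown was -0.17 (95% interval -0.44 to 0.09, adjusted p 0.352), or -0.32 over VM libraries alone (adjusted p 0.155). Within 4OHT siNT the number 2 libraries were at 7.01 to 7.81 CPM and the number 4 libraries at 10.2 to 11.1 CPM, a log2 difference of -0.56 (SE 0.11, edgeR adjusted p 0.0146). MMP19 was the one gene of the 8 called between the siNT numbers, where 3.59% of all genes were called in either direction, though the libraries of 5 others also lay apart by number, as described with the siRNAs. An 821-base exon overlap with TMEM198B lies on the opposite strand, and counting was stranded.

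TIMP1, the TIMP most often listed in the SASP, inhibits most secreted MMPs and binds the MMP9 precursor (ENSG00000102265; chrX:47582408-47586789, plus strand, inside SYN1 on the other strand with no shared exon). Its DMSO siNT levels were 764, 917, 931, 1056 and 1497 CPM. It ran from 3557 to 5984 CPM with a median of 4862 in 4OHT siNT and from 2560 to 6156 CPM with a median of 3780 in 4OHT siSMARCA4. The lowest 4OHT library was well above the highest DMSO library, and the siSMARCA4 libraries fell both below and above the range of siNT. Senescence raised TIMP1 4.73-fold (log2 2.24, SE 0.24, edgeR adjusted p 1.99e-07). The pooled knockdown effect was -0.31 (95% interval -0.76 to 0.13, edgeR adjusted p 0.311), and it passed the test over VM libraries alone.

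TIMP2, which inhibits MMPs broadly and with MMP14 forms the MMP2 docking site, moved the other way (ENSG00000035862; chr17:78852977-78925387, minus strand). It was at 1163, 1258, 1351, 1354 and 1533 CPM in DMSO siNT. It ran from 817 to 907 CPM with a median of 871 in 4OHT siNT and from 615 to 734 CPM with a median of 705 in 4OHT siSMARCA4. The 3 groups did not overlap, and each step went down. The log2 fold change was -0.62 with senescence (SE 0.07, edgeR adjusted p 9.3e-07) and -0.34 with the knockdown (SE 0.07, adjusted p 0.00201). Knockdown cells held 1.95-fold less TIMP2 than growing cells (log2 -0.96, SE 0.07, edgeR adjusted p 2.3e-09). Over VM libraries alone the knockdown effect was -0.33 (SE 0.08, adjusted p 0.0102), while with number 4 libraries alone it was -0.24 and missed the threshold (adjusted p 0.218). Exon sequence shared on the same strand with CEP295NL covers 224 bases, and that gene had 2 to 16 counts per library. The antisense gene ENSG00000267601 overlaps 367 exon bases.

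TIMP3 is bound to the extracellular matrix and inhibits ADAM and ADAMTS proteinases as well as MMPs (ENSG00000100234; chr22:32801705-32863041, plus strand, within SYN3 on the other strand). Its DMSO siNT levels were 218, 230, 232, 254 and 305 CPM. It ran from 123 to 159 CPM with a median of 136 in 4OHT siNT and from 54.1 to 106 CPM with a median of 87.2 in 4OHT siSMARCA4. Again the 3 groups did not overlap. TIMP3 fell by 0.84 on the log2 scale with senescence (SE 0.14, edgeR adjusted p 3.35e-05) and by 0.70 with the knockdown (SE 0.13, adjusted p 0.001), so that knockdown cells held 2.90-fold less than growing cells (log2 -1.54, SE 0.14, adjusted p 1.75e-08). Over VM libraries alone the knockdown effect was -0.65 (SE 0.17, adjusted p 0.0143).

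TIMP4, the TIMP with the narrowest tissue range, was nearly silent throughout (ENSG00000157150; chr3:12153068-12158912, minus strand, overlapping SYN2 on the other strand over 170 exon bases). Counts per library were 68 to 161 in DMSO siNT, 24 to 49 in 4OHT siNT and 8 to 22 in 4OHT siSMARCA4. These gave 1.14, 1.37, 1.61, 1.71 and 2.81 CPM in DMSO siNT, 0.460 to 0.872 CPM with a median of 0.619 in 4OHT siNT, and 0.156 to 0.425 CPM with a median of 0.311 in 4OHT siSMARCA4. The groups did not overlap in spite of the low counts. The log2 fold change was -1.41 with senescence (SE 0.27, edgeR adjusted p 1.72e-04) and -1.16 with the knockdown (SE 0.28, adjusted p 0.0059), and knockdown cells stood 5.96-fold below growing cells (log2 -2.58, SE 0.28, adjusted p 2.76e-07). Over VM libraries alone the knockdown effect was -1.59 (SE 0.32, adjusted p 0.00251), and over number 4 libraries alone it was -0.94 (adjusted p 0.135).

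**Figure D2:**
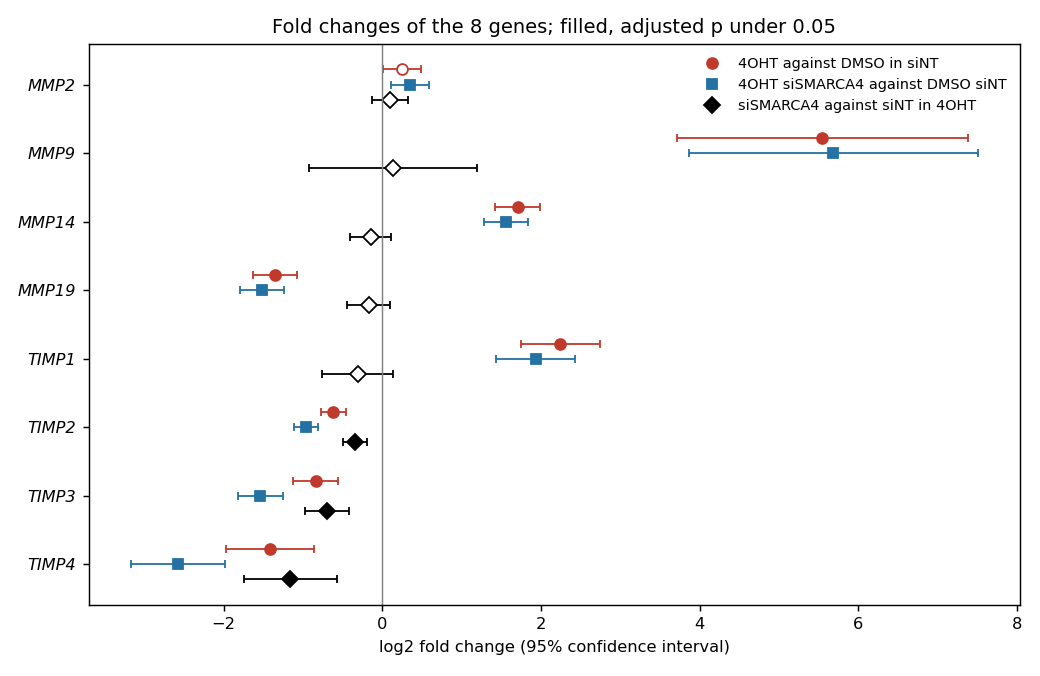
log2 fold change (x axis) of each gene (y axis) in the 3 comparisons, with 95% confidence intervals and filled symbols where the edgeR adjusted p was under 0.05. MMP9, MMP14 and TIMP1 lie right of 0 in both comparisons with DMSO and their knockdown intervals cross 0, whereas TIMP2, TIMP3 and TIMP4 lie left of 0 in all 3.

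TIMP2, TIMP3 and TIMP4 were therefore the genes of the set that fell at both steps, and their siSMARCA4 libraries all lay below their siNT libraries, as 7.49% of all genes did. In 4OHT against DMSO, 3 of the 8 genes had every 4OHT siNT library above every DMSO library and 4 had every one below, which 19.6% and 20.0% of all genes did. Among those above was MMP9, which passed the filter on low counts through 4OHT libraries alone. The summed fibroblast markers fell over the same groups, and their part in the TIMP values was not tested. Of the 10, 7 were called lower in the knockdown, beside 13.8% of all genes. With senescence 7 were called lower and 1 higher, beside 27.4% and 27.0%. In DMSO siNT, 4OHT siNT and 4OHT siSMARCA4 the group means were 5982, 5963 and 5717 CPM for VIM and 136, 134 and 126 CPM for PDGFRA. FAP went from 73.9 to 106 and 97.0 CPM. Within siSMARCA4, V libraries lay wholly above VM libraries for 5 of the 10 markers and 2 were called, beside 22.3% and 3.70% of all genes in either direction. Over VM libraries alone 7 of the 10 were called lower and none higher, beside 15.3% and 11.6% of all genes. Among them, and named after their values were seen, COL1A1, the main collagen chain of fibroblasts, fell by 1.46 on the log2 scale with the knockdown (SE 0.18, edgeR adjusted p 2.84e-05), and PDGFRB, a growth factor receptor of mesenchymal cells, by 1.27 (SE 0.18, adjusted p 9.31e-05).

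Levels of different genes were compared per kilobase of exon, with GENCODE 44 lengths. The study's methods name another annotation release, so lengths, and with them the levels per kb, shares and ratios between genes, may differ from those of the gene models used for counting. In growing cells TIMP1 was highest at 714 CPM per kb, followed by TIMP2 at 214, MMP14 at 171, MMP2 at 151, TIMP3 at 53.9, MMP19 at 4.92, TIMP4 at 1.45 and MMP9 at 0.00655 (group means). TIMP2 and MMP14 did not separate beyond their libraries' ranges, nor did MMP14 and MMP2. In 4OHT siNT TIMP1 reached 3382 CPM per kb and MMP14 558, and TIMP2, at 140, dropped behind MMP2, at 180. The order then was TIMP1, MMP14, MMP2, TIMP2, TIMP3, MMP19, TIMP4 and MMP9, and of the neighbours only TIMP4 and MMP9 overlapped. 4OHT siSMARCA4 kept that order save that MMP9, at 0.368, and TIMP4, at 0.240, changed places, again with overlapping libraries.

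The make-up of the 4 TIMPs and of the 4 MMPs described here changed with senescence. TIMP1 supplied a median of 69.2% of the summed TIMP level per kb in DMSO siNT (67.5% to 81.5%), 95.2% in 4OHT siNT (93.3% to 96.2%) and 95.2% in 4OHT siSMARCA4 (92.8% to 96.9%). TIMP2 went from a median of 23.4% to 3.93% and 4.26%. Among the 4 MMPs, MMP14 supplied 52.3% in DMSO siNT (42.5% to 61.7%), 75.3% in 4OHT siNT (74.1% to 76.7%) and 72.3% in 4OHT siSMARCA4 (66.4% to 76.3%), and MMP2 went from 46.1% to 24.5% and 27.5%.

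Ratios of a proteinase to an inhibitor within a library do not depend on library scaling and are given as descriptions without a test. MMP2 to TIMP2, both per kb, was 0.633 to 0.812 in DMSO siNT, 1.13 to 1.52 in 4OHT siNT and 1.58 to 2.15 in 4OHT siSMARCA4. The groups did not overlap, and per kb MMP2 passed from below to above TIMP2. Where this ratio crosses 1 depends on the exon lengths used, 4706 bases for MMP2 and 6209 for TIMP2. Without length scaling the group means of MMP2 and TIMP2 were 710 and 1332 CPM in DMSO siNT. They were 845 and 867 CPM in 4OHT siNT, and 906 and 684 CPM in 4OHT siSMARCA4. MMP2 to TIMP3 rose likewise, from 2.46 to 3.63 over 4.73 to 7.67 to 8.35 to 18.6. MMP14 to TIMP2 went from a median of 0.767 in DMSO siNT to 3.76 in 4OHT siNT and 4.50 in 4OHT siSMARCA4, with overlap between both 4OHT groups. A sum of the 4 MMPs leaves out the 11q22 cluster and is no measure of all MMP transcripts. In DMSO siNT, 4OHT siNT and 4OHT siSMARCA4, mean CPM per kb was 174, 2177 and 2689 for MMP1. For MMP3 it was 2.45, 363 and 994. The sum of the 4 MMPs over the sum of the 4 TIMPs ran the other way with senescence, from a median of 0.337 (0.260 to 0.421) to 0.214 (0.169 to 0.263), since TIMP1 makes up most of the lower sum, and in 4OHT siSMARCA4 it spread from 0.128 to 0.402. Its 3 lowest values there, 0.128, 0.210 and 0.214, were the V libraries. MMP9 to TIMP1 was at most 0.000234 in every library.

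**Figure D3:**
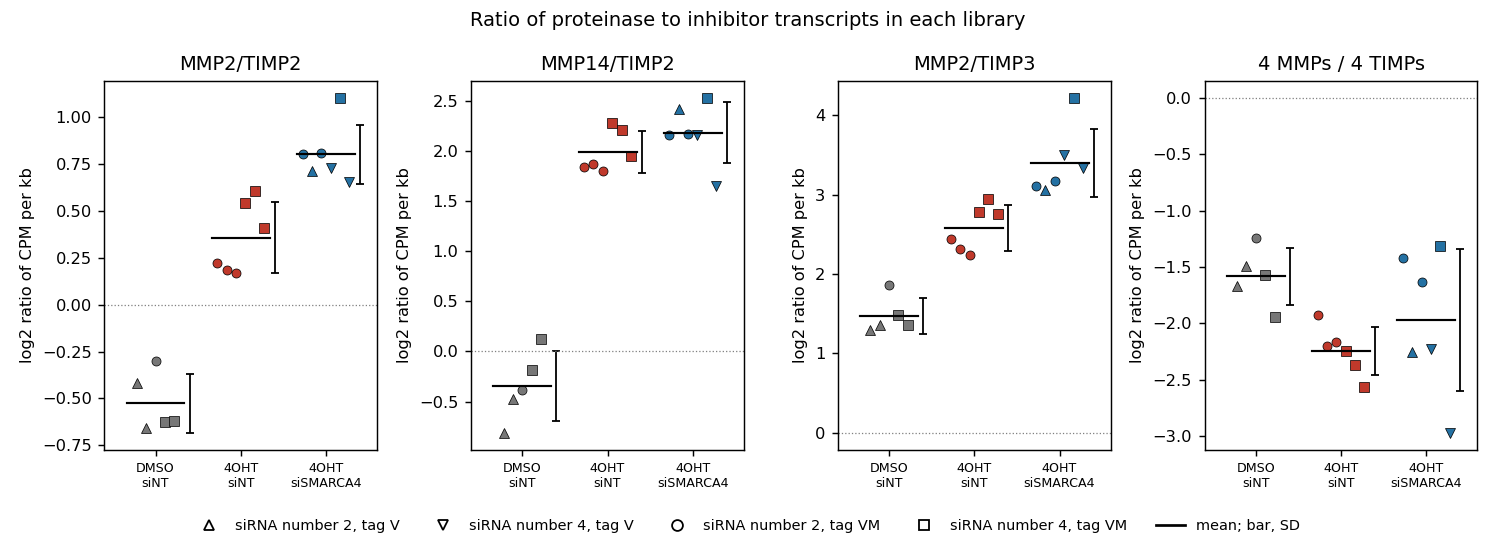
log2 ratio of CPM per kb (y axis) for MMP2/TIMP2, MMP14/TIMP2, MMP2/TIMP3 and the 4 MMPs over the 4 TIMPs in each library, with group means and SD bars and a dotted line where the ratio is 1. The MMP2/TIMP2 and MMP2/TIMP3 groups rise in 2 steps without overlap, and the summed ratio of 4OHT siSMARCA4 parts into V libraries (0.128 to 0.214) and VM libraries (0.322 to 0.402).

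Within 4OHT siSMARCA4 the V and VM libraries of 4 of the 8 genes did not overlap, as was so for 22.3% of all genes in either direction, and for TIMP1 and MMP9 the difference passed the test. TIMP1 was at 4570, 4617 and 6156 CPM in the V libraries and at 2560, 2753 and 2990 CPM in the VM libraries, a log2 difference of 0.89 (SE 0.21, edgeR adjusted p 0.0278). MMP9 was at 0.889, 1.67 and 1.74 CPM in V and at 0.215, 0.296 and 0.342 CPM in VM, a log2 difference of 2.33 (SE 0.54, adjusted p 0.0268). V lay above VM for both, and these were the 2 of the 8 genes called, where 3.70% of all genes were called in either direction. MMP2 was lower in V, at 765 to 891 CPM, than in VM, at 932 to 1032 CPM (log2 -0.20, adjusted p 0.542). MMP19 was higher in V, at 7.81 to 9.76 CPM, than in VM, at 6.67 to 7.50 CPM (log2 0.30, adjusted p 0.386). Neither difference passed the test, and MMP14, TIMP2, TIMP3 and TIMP4 overlapped between the tags. Against the 6 VM libraries of 4OHT siNT, the 3 VM libraries of siSMARCA4 had TIMP1 lower by 0.81 (SE 0.19, adjusted p 0.00821) and MMP9 lower by 1.45 (SE 0.48, adjusted p 0.0388), both called, which makes 5 of the 8 genes lower, where 15.3% of all genes were called lower in that fit. With the tag as a term in the model MMP9 fell by 1.45 (edgeR adjusted p 0.0294), and TIMP1 by 0.51 without passing (adjusted p 0.144). That term fits the same shift in DMSO siNT and siSMARCA4. In DMSO siNT, however, TIMP1 was at 764 and 931 CPM in V and at 917 to 1497 CPM in VM. SMARCA4 was there at 168 and 192 CPM in V and at 205 to 215 CPM in VM. MMP9 had 4 counts over all DMSO libraries. No V library of 4OHT siNT was analysed, so a knockdown effect within V cannot be had, and for these libraries tag and knockdown cannot be told apart. Within siSMARCA4, SMARCA4 itself was higher in V than in VM, as given with the check of the knockdown, and its part in the TIMP1 and MMP9 values was not tested.

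**Figure D4:**
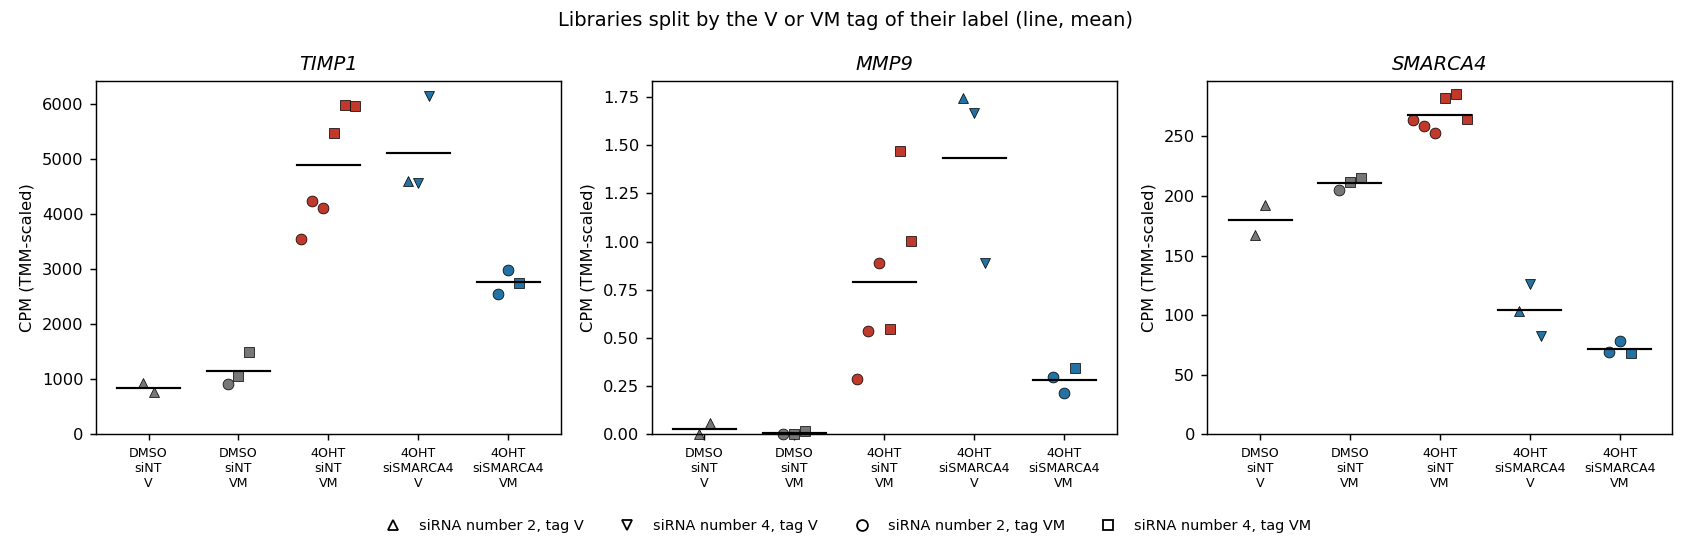
CPM (linear axes from 0) of TIMP1, MMP9 and SMARCA4 in each library, split by group and by the V or VM ending of its label, with a line at each mean. The siSMARCA4 V libraries of TIMP1 (4570 to 6156 CPM) and MMP9 (0.889 to 1.74 CPM) lie above their VM libraries (2560 to 2990 and 0.215 to 0.342 CPM), and SMARCA4 is lower in VM there. In DMSO siNT, SMARCA4 is lower in V (168 and 192 CPM) than in VM (205 to 215 CPM).

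The libraries labelled siSMARCA4 number 2 and number 4 were compared directly. Number and tag were not balanced, as number 2 had 1 V and 2 VM libraries and number 4 had 2 V and 1 VM. Differences between the numbers therefore mix with those between the tags. All 4OHT siNT libraries were VM, so fits of each number against them carry the same mix. In DMSO siNT, number 2 had 2 V and 1 VM libraries and number 4 had 2 VM. TIMP3 was at 89.5, 101 and 106 CPM with number 2 and at 54.1, 77.1 and 84.8 CPM with number 4, a log2 difference of 0.45 (95% interval 0.13 to 0.78, p 0.00897, edgeR adjusted p 0.299). It was the 1 gene of the 8 whose libraries lay apart by number here, as 14.4% of all genes did in either direction, and the 1 with an unadjusted p under 0.05, and none of the 8 was called by edgeR or by DESeq2, where edgeR called 0.0462% of all genes in either direction. The other log2 differences ran from -0.41 for TIMP1 (95% interval -1.02 to 0.21) to 0.07 for MMP14 (-0.30 to 0.45). The siNT libraries also lay apart by number for 6 of the 8 genes, as for 36.7% of all genes in either direction. Number 2 was lower than number 4 for MMP2, MMP14, MMP19 and TIMP1 (3557 to 4249 against 5474 to 5984 CPM for TIMP1, log2 -0.55, adjusted p 0.271). It was higher for TIMP2 and TIMP3 (145 to 159 against 123 to 128 CPM for TIMP3, log2 0.26, adjusted p 0.312), and MMP19 alone passed the test. Set against all 4OHT siNT libraries, number 2 lowered TIMP2 (-0.36, adjusted p 0.00781), TIMP3 (-0.49, adjusted p 0.0163) and TIMP4 (-1.22, adjusted p 0.024), where 13.5% of all genes were called lower. Number 4 lowered TIMP2 (-0.33, adjusted p 0.026) and TIMP3 (-0.94, adjusted p 5.97e-04), where 6.06% were, and TIMP4 (-1.11, adjusted p 0.0555) just missed the threshold. With number 4 libraries alone in both groups, TIMP3 was the 1 gene of the 8 called lower (-0.77, adjusted p 0.0196), where 2.38% of all genes were. Each number was also set against the siNT libraries with the same number in their label, a match that the labels do not explain. The knockdown effects of none of the 8 genes were then called different by edgeR's test of that difference. It called 0.714% of all genes in either direction, and no gene of the 8 had an unadjusted p under 0.05.

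Other genes of these pathways were counted from lists, and the lists were described by counts and medians alone. Both comparisons shared the 4OHT siNT libraries. Beside each count stand the shares of all genes tested, which were 27.0% higher and 27.4% lower with senescence and 10.4% higher and 13.8% lower with the knockdown. Over VM libraries alone the knockdown shares of all genes were 11.6% and 15.3%. With siSMARCA4 number 2 against all siNT libraries they were 9.22% and 13.5%, and with number 4 they were 4.84% and 6.06%. Of 9 further MMPs outside 11q22, 8 were tested. In senescence MMP15, a membrane-type MMP, rose from 12.2 to 32.4 CPM (log2 1.41, edgeR adjusted p 7.18e-10) and 2 fell, MMP24 by 0.98 (adjusted p 0.0147) and MMP23B. The means of MMP23B were 0.574 CPM in DMSO siNT and 0.139 CPM in 4OHT siNT. It passed the filter on low counts through DMSO libraries, so its call could hardly be higher. With the knockdown MMP16, also membrane-bound, fell from 24.2 to 14.8 CPM (log2 -0.70, adjusted p 0.00594) and none rose, while over VM libraries alone 2 were called higher and 1 lower. Number 2 gave 1 higher and 1 lower call, and number 4 gave none. Within siSMARCA4, V and VM libraries did not overlap for 2 of the 8, beside 22.3% of all genes, and none was called, beside 3.70%. In the 11q22 cluster all 6 tested members were higher in 4OHT siNT than in DMSO siNT, and with the knockdown 3 were higher, 1 was lower and 2 were not called. The VM libraries alone gave 4 higher and 1 lower, number 2 gave 3 and 1, and number 4 gave 3 higher and none lower. V libraries lay wholly above VM libraries for 2 of the 6, and 1 was called. The cluster's median log2 fold change was 5.27 with senescence and 0.88 with the knockdown, beside -0.18 and -0.24 for the 8 genes. In DMSO siNT, MMP7, MMP8, MMP10 and MMP12 had means of 0.0256, 0.176, 0.0672 and 0.165 CPM. Like MMP9, these passed the filter on low counts through 4OHT libraries, so their calls against DMSO could hardly be lower. MMP13, MMP20 and MMP27 were not tested. The count of 6 and the median of 5.27 therefore rest in part on the filter.

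Of 15 regulators of MMP activity, 14 were tested. With senescence 5 rose and 6 fell, beside 27.0% and 27.4% of all genes. TFPI2, a matrix-bound serine proteinase inhibitor, rose by 3.81 on the log2 scale (adjusted p 1.43e-11) and the integrin subunit ITGB3, which pairs with ITGAV to hold MMP2 at the surface, by 2.29 (adjusted p 2.13e-10). RECK, a membrane-anchored MMP inhibitor, fell by 2.03 (adjusted p 8.11e-11) and CAV1, the caveolar scaffold protein, by 2.55 (edgeR adjusted p 4.43e-12). With the knockdown 2 rose and 6 fell, beside 10.4% and 13.8% of all genes. Over VM libraries alone 2 were called higher and 7 lower. Number 2 gave 2 higher and 7 lower calls, and number 4 gave 1 and 2. The V and VM siSMARCA4 libraries did not overlap for 8 of the 14, with V higher in all 8, beside 22.3% of all genes in either direction. Of the 14, 1 was called, beside 3.70%. ITGB3 rose by a further 0.69 (adjusted p 0.00104), and A2M, a broad proteinase trap, fell by 2.28 (adjusted p 2.77e-04). THBS2, a matricellular protein involved in MMP2 clearance, fell by 1.14 (adjusted p 2.32e-04) and LRP1, the receptor that takes up MMP and TIMP complexes, by 0.70 (edgeR adjusted p 0.0214).

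Of the ADAM family, membrane-bound proteins of which several are sheddases, 10 of 11 were tested. In senescence 2 rose and 5 fell, beside 27.0% and 27.4% of all genes, and with the knockdown 1 rose and 4 fell, beside 10.4% and 13.8%. None rose and 5 fell over VM libraries alone. Number 2 gave 4 lower calls and no higher one, and number 4 gave 1 of each. V libraries lay wholly above VM libraries for 4 of the 10, and 1 was called, beside 22.3% and 3.70% of all genes in either direction. ADAM19 rose from 151 to 1243 CPM in senescence (log2 3.04, adjusted p 1.28e-09) and fell to 674 CPM with the knockdown (log2 -0.88, adjusted p 0.00284). ADAM12 rose by 1.77 (adjusted p 2.05e-08) and then fell by 0.53 (adjusted p 0.0114). Among those that fell in senescence, ADAM33 dropped from 4.55 to 1.36 CPM (log2 -1.74, edgeR adjusted p 1.27e-04) and ADAM9 from 528 to 316 CPM (log2 -0.74, edgeR adjusted p 8.88e-07). Of 19 ADAMTS proteinases, secreted enzymes that cut proteoglycans and procollagens, 16 were tested. In senescence 6 were higher and 4 lower, beside 27.0% and 27.4% of all genes, and with the knockdown 3 were higher and 7 lower, beside 10.4% and 13.8%. With VM libraries alone 17 were tested, of which 3 were higher and 8 lower. Number 2 gave 3 higher and 7 lower calls, and number 4 gave 3 and 6. V libraries lay wholly above VM libraries for 4 of the 16 and wholly below for 4, beside 22.3% of all genes in either direction. Of the 16, 3 were called, beside 3.70%. ADAMTS15 fell by 3.76 with senescence (adjusted p 7.32e-07), and ADAMTS4 rose by 2.80 (adjusted p 8.41e-08). With the knockdown ADAMTS19 (log2 -2.56, adjusted p 5.33e-05), ADAMTS8 (-2.41, adjusted p 4.93e-04) and ADAMTS3 (-1.01, adjusted p 0.00247) fell, while the aggrecanase ADAMTS5 rose by 0.90 (edgeR adjusted p 0.00114).

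Basement membrane genes, substrates of the gelatinases, were tested for 18 of 21. In senescence 10 rose and 5 fell, beside 27.0% and 27.4% of all genes, and with the knockdown 1 rose and 9 fell, beside 10.4% and 13.8%. Their median log2 fold changes were 0.46 and -0.45. The knockdown counts were 2 higher and 9 lower over VM libraries alone. Number 2 gave 1 higher and 8 lower calls, and number 4 gave 1 and 9. V libraries lay wholly above VM libraries for 2 of the 18 and wholly below for 2, beside 22.3% of all genes in either direction. Of the 18, 1 was called, beside 3.70%. HSPG2, which encodes perlecan, fell by 2.30 in senescence (edgeR adjusted p 1.61e-07) and by a further 0.73 with the knockdown (adjusted p 0.0251). The collagen chain COL4A6 rose by 1.52 (adjusted p 5.7e-05) and then fell by 1.56 (adjusted p 2.18e-04), and the laminin chain LAMA4 fell by 1.75 with the knockdown (adjusted p 4.08e-04).

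**Figure D5:**
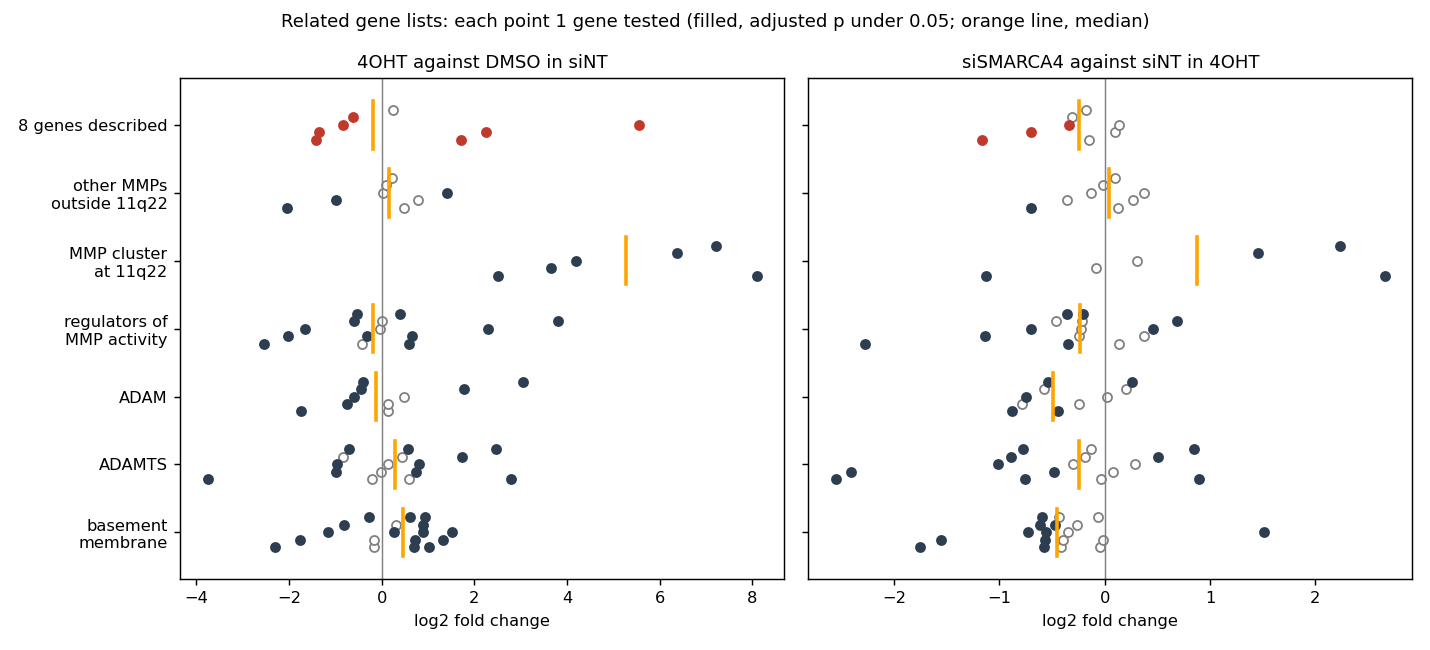
log2 fold change (x axis) of every tested gene in the 8 genes described and 6 related lists (y axis), for 4OHT against DMSO in siNT and for siSMARCA4 against siNT in 4OHT, with filled points where the edgeR adjusted p was under 0.05 and an orange line at each median. The 11q22 cluster medians (5.27 and 0.88) lie right of those of the 8 genes (-0.18 and -0.24) in both panels, and the basement membrane median moves from 0.46 to -0.45. The cluster includes genes that passed the filter on low counts through 4OHT libraries, so their points against DMSO could hardly lie left of 0.

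For each gene the 3 most similar genes were taken by Pearson's r of log2 CPM over the 17 libraries, among the genes with symbols, and r after taking out the group means is given beside it. All libraries enter, so the value over 17 libraries mostly follows the differences between groups, and it is a description. MMP14 was closest to RRP12 (r 0.99, and 0.93 without group means), FZD8 and PIAS4. MMP19 was closest to MTHFD1L (0.99 and 0.87), AXL and ADAMTSL4. MMP9 was closest to IQGAP2 (0.96 and 0.79), MEDAG and QPCT, and MMP2, whose groups overlapped, to GNB1 (0.87 and 0.80), CNNM2 and TBC1D8. TIMP1 was closest to BSCL2 (0.98 and 0.88), TRIM36 and CTSB, the lysosomal proteinase cathepsin B. TIMP2 was closest to LTBP1, which holds latent TGF-β in the matrix (0.99 and 0.84), KANK1 and IRAG1. TIMP3 was closest to ANO4 (0.98 and 0.88), ROBO2 and PDGFRL, and TIMP4 to FRZB, a secreted Wnt antagonist (0.98 and 0.83), ZNF660 and CAMK4. No member of the set was among the 3 genes most like another.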

How the data were processed

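RNA-seq of 17 libraries was analysed, 5 DMSO siNT, 6 4OHT siNT and 6 4OHT siSMARCA4, grouped by the labels. The authors deposited, for each library, expected counts per gene and per repeat locus, which are estimated because TElocal shares read pairs that align to several places (up to 100 alignments per pair, reverse-stranded) after trimming with cutadapt 4.7 and alignment to GRCh38 with HISAT2 2.2.1 (versions per the submitters' processing notes). Such sharing can move counts between a gene and repeats inside it.

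Total counts ran from 39109479 to 68978119, with a median of 52648278, and intervals on counts cover counting error only. Counts were rounded to whole numbers, filtered with filterByExpr (minimum count 10, minimum total 15) and scaled by TMM (factors 0.949 to 1.08). Counts summed by repeat subfamily (1026 kept) went through these steps and the fit together with the genes. Genes were tested by the quasi-likelihood test of edgeR 4.0.16 (R 4.3.3, limma 3.58.1) over all groups, with Benjamini-Hochberg adjustment over 19473 genes, two-sided, and the scripts were tested on simulated data. log2 CPM for likeness used a prior count of 2. Exon lengths and positions came from GENCODE 44, which matched 62700 gene IDs although the study's methods name an Ensembl release, and promoters from RefSeq. Figures were drawn with matplotlib 3.10.9.

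The 8 genes and all lists were chosen with earlier results of these data known. From each list up to 4 called genes with the largest change and at least 1 CPM in a group were eligible to be named (MMP23B, under that level, was named to complete a count of 2). The 11q22 cluster was only counted, and its genes were named only to give limits of counts and sums. No library pair was identical, and every pair within a group differed by more than sampling noise. Deviations from the group means of siNT and siSMARCA4 libraries with the same replicate number and ending, whatever their siRNA number, correlated at -0.10 to 0.30, over 0.1 in 2 of 6 pairs, so numbers were not treated as pairing. Alternatives were RLE size factors, upper-quartile factors, library totals alone, DESeq2 1.42.0, no filter, fits to only the 2 groups compared, a replicate block (replicate number with its V or VM ending), the V or VM ending as a term, VM libraries alone, each siRNA number alone and leaving out each library.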

Additional observations from a re-analysis of the deposited data

Results flagged for a closer look

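Over 36 combinations of group and measure, 3 libraries stood far from the rest of their group, and chance alone sets apart about 1 group in 20. MMP9 in DMSO siNT library 2-2V was at 0.0597 CPM (3 counts), with the others at 0 to 0.0168 CPM. MMP14 in 4OHT siSMARCA4 library 4-3V was at 1724 CPM, below the 2355 to 2730 CPM of the others. That library also had 7.81% mitochondrial counts, where the others of its group had 4.54% to 5.91%. The MMP2/TIMP2 log2 ratio of 4OHT siSMARCA4 library 4-2VM was 1.10, above the 0.66 to 0.81 of the others.

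Differences between groups that the comparisons did not set out to test were found for 3 genes. Within 4OHT siSMARCA4, V libraries exceeded VM libraries by 2.33 on the log2 scale for MMP9 and by 0.89 for TIMP1 (edgeR adjusted p 0.0268 and 0.0278). Within 4OHT siNT, MMP19 was lower with number 2 than with number 4 (log2 -0.56, adjusted p 0.0146). These tests were added after the separation was seen.

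Counts on repeat loci, which no comparison used, were higher inside MMP14 in 4OHT siNT than in DMSO siNT, with no test run. MMP14 itself was 3.26-fold higher between the same groups. Its 6 repeat loci together had a mean of 0.420 CPM in 4OHT siNT (0.295 to 0.586) and 0.157 CPM in DMSO siNT, with every library above the 0.0838 to 0.220 CPM of DMSO siNT, and 0.131 to 0.313 CPM in 4OHT siSMARCA4. The 252 repeat loci inside MMP2 had means of 1.22, 1.76 and 2.24 CPM in DMSO siNT, 4OHT siNT and 4OHT siSMARCA4, also untested, with overlapping libraries at each step.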

How the results depend on the processing

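The directions and calls of MMP9, MMP14, MMP19 and TIMP1 to TIMP4 between 4OHT and DMSO held under every alternative run. Over the leave-one-out and other fits, the log2 fold changes with senescence ranged from 1.49 to 1.78 for MMP14, 2.05 to 2.42 for TIMP1 and -0.95 to -0.78 for TIMP3. The knockdown effect on MMP9, 0.13 in all libraries, turned to -1.45 over VM libraries alone, to -1.45 with the tag as a term and to -1.40 with the replicate block (edgeR adjusted p 0.0388, 0.0294 and 0.0324). The block joins the replicate number to the V or VM ending and so contains the tag. All 3 fits thus deal with the tag and are not independent. The block left 4444, 9429 and 9150 genes called in the knockdown, senescence and combined comparisons against 4703, 10601 and 10725, and changed no other call among the 8 genes. Members called in the knockdown went from 3 to 5 over VM libraries, where 5303 genes were called (15.3% of all lower), and to 1 over number 4 libraries, where 1198 were called (2.38% lower). Leaving out 1 library kept 3 members called there, and 3717 to 5250 genes. The direct comparison of the siRNA numbers called 9 genes, but 69 without the filter, 238 with DESeq2 and 18 with the tag as a term. It called 1 to 653 when 1 library was left out, with 75 without 2-3V and 653 without 4-2VM, against 1 without 2-1VM, 2 without 2-3VM or 4-3V and 3 without 4-2V. With number 2 and number 4 libraries alone, the senescence log2 difference was 0.65 and 1.15 for MMP2/TIMP2 (0.88 in all) and 0.83 and 1.41 for MMP2/TIMP3 (1.11 in all). The summed MMP to TIMP ratio changed by 0.79 with the knockdown over VM libraries alone, against 0.28. The cause of these shifts was not tested. With 4 counts in DMSO, MMP9's fold is limited by depth, and the filter on low counts admitted it through 4OHT libraries alone.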

Other observations

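Counts on the 5 repeat loci inside TIMP1 spread widely within groups. They were 0.0645 to 0.939 CPM in DMSO siNT, 0.844 to 7.23 CPM in 4OHT siNT and 0.0801 to 11.2 CPM in 4OHT siSMARCA4. Library 4-3V held 586 of the 657 counts of 4OHT siSMARCA4 on these loci. An intronic L2a element at chrX:47584502-47584711 held 89.2% of the counts on these loci over all libraries. VWF, the best detected of the endothelial markers, went from 1.11 CPM in DMSO siNT to 3.76 CPM in 4OHT siNT (group means).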
